A study of Homo sapiens with 6 samples.

Results

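The genes described here are 60 human genes of mitosis: the cyclins and kinases that start it, the spindle checkpoint, the anaphase-promoting complex and separase, centromere and kinetochore proteins, kinesin motors, and the proteins that shape chromosomes and divide the cell. They were taken by symbol from a list of mitotic genes, drawn up with earlier results of these data known, and all 60 were found among the 54628 genes of the files. The samples were U87 cells (an established line from a human glioblastoma) that were taken from a co-culture by flow sorting, and the series title speaks of mitochondria that pass from astrocytes to glioblastoma cells. Sequencing libraries came from 3 samples of cycling cells that had received mitochondria (received) and 3 samples of cycling cells that had not (not received). Both groups were labelled as cycling, so the comparison is between dividing populations and not between dividing and resting ones. The labels name no other treatment, genotype or time, and do not say how cycling or receipt of mitochondria was marked for the sort.

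Mitosis separates copied chromosomes in a fixed order. Cyclin B with CDK1 starts it, and Aurora and Polo-like kinases build the spindle. Kinetochores, protein assemblies on each centromere, tie chromosomes to microtubules. The spindle checkpoint holds the cell until every kinetochore is attached. CDC20 then activates the anaphase-promoting complex (APC/C), which marks securin and cyclin B for destruction and frees separase to cut the rings of cohesin. Most of these genes are transcribed late in the cell cycle. Their promoters often hold a cell cycle homology region (CHR, TTTGAA or TTCGAA), bound by the DREAM and B-MYB complexes, and CCAAT boxes, bound by NF-Y.

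Promoter sequences were taken from a RefSeq table of build GRCh38.p14, which holds 250 bases before and 50 after the start of each gene. It had an entry for 52 of the 60 genes. FOXM1, AURKA, BUB3, TTK, UBE2C, CENPM, TPX2 and BIRC5 were not matched. The 150 bases before the start are shown for 6 genes, all on the plus strand, with the CHR letters and CCAAT on either strand in capitals. CCNB2 and PLK1 show the common arrangement in genes that did not pass the test between groups. The other 4 genes passed it. CDC20 has both kinds of motif, CCNB1 and PTTG1 have CCAAT without TTTGAA or TTCGAA, and KIF2C has none of these. Other forms of the CHR were not searched for.

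CCNB2: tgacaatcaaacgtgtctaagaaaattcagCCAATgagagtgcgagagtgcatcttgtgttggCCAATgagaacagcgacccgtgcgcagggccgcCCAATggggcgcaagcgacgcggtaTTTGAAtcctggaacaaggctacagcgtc
PLK1: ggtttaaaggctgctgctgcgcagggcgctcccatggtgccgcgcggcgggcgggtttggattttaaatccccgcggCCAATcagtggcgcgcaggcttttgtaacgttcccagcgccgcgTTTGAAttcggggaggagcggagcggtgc
CDC20: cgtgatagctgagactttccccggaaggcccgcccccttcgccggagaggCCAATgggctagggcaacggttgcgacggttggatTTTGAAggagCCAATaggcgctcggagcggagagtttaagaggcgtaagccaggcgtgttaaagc
CCNB1: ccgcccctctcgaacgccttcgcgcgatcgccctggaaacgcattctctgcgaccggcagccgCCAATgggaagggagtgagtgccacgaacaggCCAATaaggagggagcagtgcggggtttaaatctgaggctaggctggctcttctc
PTTG1: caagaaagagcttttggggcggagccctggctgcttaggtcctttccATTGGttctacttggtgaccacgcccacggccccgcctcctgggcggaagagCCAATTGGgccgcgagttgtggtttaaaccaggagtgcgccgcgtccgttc
KIF2C: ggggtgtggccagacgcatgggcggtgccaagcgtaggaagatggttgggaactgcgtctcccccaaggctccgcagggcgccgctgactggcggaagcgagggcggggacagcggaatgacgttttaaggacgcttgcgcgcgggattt

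These windows lie at chr15:59104996-59105145 (CCNB2), chr16:23678739-23678888 (PLK1), chr1:43358831-43358980 (CDC20), chr5:69167000-69167149 (CCNB1), chr5:160421705-160421854 (PTTG1) and chr1:44739687-44739836 (KIF2C). The CHR letters begin 29 bases before the start in both CCNB2 and PLK1, and 65 bases before it in CDC20. CCNB2 has CCAAT 54, 87 and 120 bases before the start, PLK1 has it 73 bases before, and CDC20 55 and 100 bases before. In CCNB1 the boxes stand 55 and 87 bases before the start. PTTG1 has an upstream box on the minus strand (103 bases before the start) and a pair that overlap on opposite strands (51 and 48 bases before). A match of letters describes the window and is not a bound site.

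Across the 300-base windows, TTTGAA or TTCGAA on either strand was found in 38 of 52 mitotic genes (73.1%). Among the tested genes with an entry it was found in 1198 of 10538 (11.4%), among all genes of the table in 4539 of 27305 (16.6%), and among S phase genes in 2 of 30 (6.67%). Of the 48 CHR matches in mitotic genes, 38 lay between 60 bases before and 50 bases after the start. CCAAT was found in 36 of 52 mitotic genes (69.2%), against 36.7% of tested genes, and both motifs in 27 of 52 (51.9%), against 4.96%. TTTGAA or TTCGAA was not found in the other 14 windows and CCAAT not in 16. With every listed start of a gene counted, the CHR share was 76.9% in mitotic genes and 15.7% in tested genes.

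The libraries held 17879552 to 21314558 counts in received cells and 18549585 to 46392491 in not-received cells. Levels are counts relative to library size (CPM), scaled by the trimmed mean of M values (TMM). Not-received replicate 2 was both the deepest and the most distant library. Its score on the first principal component of all genes was 37.3, against 10.7 and 11.0 for replicates 3 and 1 of its group and -22.0 to -15.3 for the received libraries. Pseudogenes held 0.696% of its counts and 0.341% to 0.390% of the counts of the other 5 libraries. Nothing in the labels ties replicates to separate cultures, and the p-values rest on a spread between samples that may be technical. Of 10 astrocyte markers AQP4, ALDH1L1 and GJB6 had no count in any library and GFAP stood at 0.215 to 0.598 CPM. The 3 astrocyte markers that passed the filter had group means of 13.9 to 71.8 CPM. All 3 had negative log2 fold changes (median -0.20), and 0 were called. The summed level of the 10 was 84.3 to 97.6 CPM in received cells and 98.5 to 109 CPM in not-received cells, narrowly without overlap. Of 8 microglia markers 6 had no count, among them AIF1, CX3CR1, P2RY12 and TREM2. The summed level of the 8 was 19.9 to 22.2 CPM in received cells and 19.8 to 21.1 CPM in not-received cells. Nearly all of it came from 1 marker that passed the filter. The 8 markers listed for mesenchymal glioma lines had group means from 21.4 to 4680 CPM. VIM, 1 of them, stood at 3556 to 4766 CPM. Of the 8, 3 were called higher and 3 lower in received cells (75%, against 18.9% of all tested genes).

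Mitotic transcripts took nearly the same part of the RNA in both groups. The 60 genes held 1.14%, 1.22% and 1.16% of counts in received libraries and 1.11%, 1.18% and 1.14% in not-received libraries, so the groups overlapped. In bulk RNA, a smaller share of cells in mitosis and less RNA per mitotic cell cannot be told apart. SKA1, a subunit of the SKA complex that couples kinetochores to microtubules, had 0 counts in all 6 libraries and was not tested. A count of 0 allows at most 0.0647 CPM at the greatest depth and 0.168 CPM at the smallest. Its partner SKA3 averaged 32.6 ± 1.69 CPM in received and 30.4 ± 1.94 CPM in not-received cells (SD, n = 3 each).

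Received and not-received cells were compared with edgeR's quasi-likelihood test over 14100 genes, and an adjusted p under 0.05 (Benjamini-Hochberg over those genes) is a call. Among the 59 tested mitotic genes, 5 were called higher in received cells (8.47%), namely MAD2L1, PTTG1, CCNB1, CDC20 and KIF2C. CENPE and CENPI were called lower (3.39%), and 52 genes were not called. Without received replicate 1, 2 or 3 the calls numbered 1, 2 and 2 higher and 0, 2 and 0 lower. In those fits 4.15% to 4.52% of all tested genes were called higher and 4.74% to 5.13% lower. Without not-received replicate 3 the mitotic calls numbered 3 higher and 2 lower, against 8.58% and 9.73% of all tested genes. With all libraries kept, 18.9% of tested genes were called, 9.21% higher and 9.67% lower. The mitotic share of 11.9% was thus no larger than this background. The median log2 fold change was 0.0019 over mitotic genes and -0.0012 over all tested genes. Groups did not overlap for 20 of the 59 genes (33.9%), against 39.0% of all tested genes. Received libraries were above in 12 of them (19.5% of all tested genes) and below in 8 (likewise 19.5%).

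**Figure D1:**
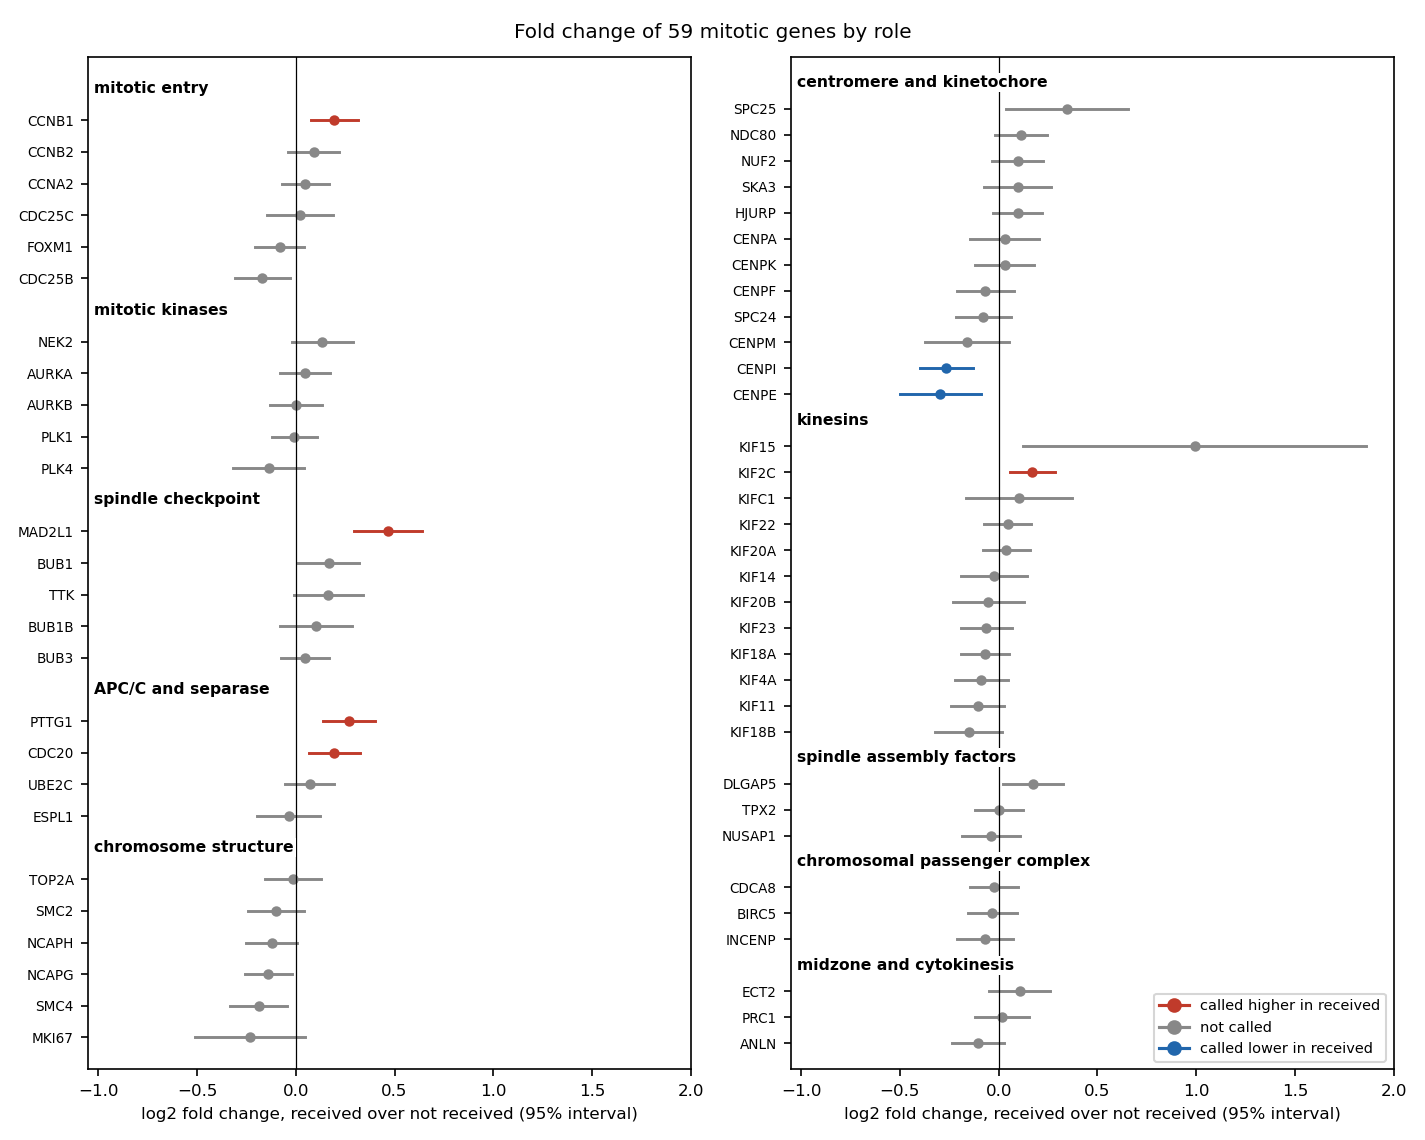
Log2 fold change of 59 mitotic genes, received over not received, with its 95% interval (points and lines), grouped by role. The 5 genes called higher (red) and the 2 called lower (blue) lie within 0.47 of 0, and the widest interval belongs to KIF15.

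Most of the fold changes were also measured narrowly. The 95% interval of the fold change lay within 1.25-fold in either direction for 45 of 59 genes and within 1.5-fold for 56. Among the 52 genes that were not called, 43 had an interval within 1.25-fold and 50 within 1.5-fold. The widest interval belonged to the least abundant tested gene. KIF15, a motor that helps keep the spindle bipolar, had 12, 22 and 14 counts in received libraries and 5, 21 and 10 in not-received libraries. Its log2 fold change of 0.99 ± 0.40 (SE) was not called (adjusted p = 0.102, edgeR).

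Among the genes of mitotic entry, cyclin B1 was called higher in received cells. CCNB1, the cyclin that activates CDK1 at the start of mitosis, had 433, 451 and 435 CPM in received libraries and 387, 365 and 400.4 CPM in not-received libraries. All 3 received libraries were above all 3 not-received ones. The log2 fold change was 0.20 ± 0.06 (SE, adjusted p = 0.0274, edgeR, n = 3 each). Without received replicate 1, 2 or 3 the call was lost (adjusted p up to 0.115).

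The other 5 entry genes were not called. CCNB2, the second mitotic cyclin B, differed by 0.09 log2 units, and CCNA2, the cyclin of S phase and early mitosis, by 0.05. Of the phosphatases that remove the inhibitory mark from CDK1, CDC25B averaged 82.3 ± 3.10 CPM in received and 92.4 ± 5.73 CPM in not-received cells (log2 fold change -0.17, adjusted p = 0.0879, edgeR), without overlap, and CDC25C differed by 0.02. Without not-received replicate 3 CDC25B was called lower. FOXM1, a transcription factor for late cell cycle genes, had 268, 284 and 289 CPM in received and 295, 309.7 and 284 CPM in not-received libraries (-0.08, adjusted p = 0.341, edgeR), and the groups overlapped.

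Of the 5 mitotic kinases 0 were called, by edgeR, DESeq2 or limma-voom, and 0 had an unadjusted p under 0.05. PLK1, which matures centrosomes and primes kinetochores, had 329, 352 and 346 CPM in received and 349, 344 and 340 CPM in not-received libraries. Its log2 fold change was -0.01 with a 95% interval of -0.12 to 0.11. AURKA, the Aurora kinase of the spindle poles, had 271, 286 and 274 CPM in received and 275, 251 and 279.7 CPM in not-received libraries (0.05, adjusted p = 0.627, edgeR).

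AURKB, the Aurora kinase of the centromere, had 115, 121 and 119 CPM in received and 122, 121 and 110.5 CPM in not-received libraries (log2 fold change 0.0019, adjusted p = 0.987, edgeR). In all 3 of these kinases the groups overlapped. NEK2, a centrosome kinase, had the smallest p of the 5. It had 79.4, 83.8 and 82.8 CPM in received and 68.1, 74.5 and 81.4 CPM in not-received libraries (0.13, adjusted p = 0.205, edgeR). PLK4, which starts centriole duplication, differed by -0.14.

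In the spindle checkpoint MAD2L1 was called higher in received cells, with the largest log2 fold change of the 7 called genes. It encodes MAD2, the protein that captures CDC20 while a kinetochore is unattached. MAD2L1 had 182, 187 and 175 CPM in received libraries and 135, 114 and 145 CPM in not-received libraries. Every received library was above every not-received one, and not-received replicate 2 was lowest. The mean was 181 ± 6.30 CPM in received and 132 ± 15.9 CPM in not-received cells (SD, n = 3 each), a log2 fold change of 0.47 ± 0.08 (SE, adjusted p = 0.00176, edgeR). Without not-received replicate 2 the log2 fold change was 0.37, and the call held in each of 13 other settings of the processing. The pseudogene MAD2L1P1 had 7, 3 and 0 counts in received and 1, 73 and 11 counts in not-received libraries, so reads placed on it were few beside those of MAD2L1.

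The other 4 checkpoint genes had positive log2 fold changes and were not called. BUB1, the kinase that recruits checkpoint proteins to kinetochores, had 187, 211 and 184 CPM in received and 159, 185 and 175 CPM in not-received libraries (0.17 ± 0.07 SE, adjusted p = 0.122, edgeR), and not-received replicate 2 lay within the received range. BUB1B, which encodes BUBR1, had 150.1, 163 and 149 CPM in received and 128, 164 and 137 CPM in not-received libraries (0.10, adjusted p = 0.415, edgeR). Without not-received replicate 2 both were called higher (0.22 and adjusted p = 0.0200 for BUB1, 0.21 and adjusted p = 0.0127 for BUB1B, edgeR). TTK, the kinase MPS1 that starts checkpoint signalling, differed by 0.16 (adjusted p = 0.173, edgeR) and BUB3 by 0.05. Over the 5 genes the median log2 deviation from each gene's mean was 0.02, 0.17 and 0.05 in received libraries and -0.21, -0.01 and -0.06 in not-received libraries.

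**Figure D2:**
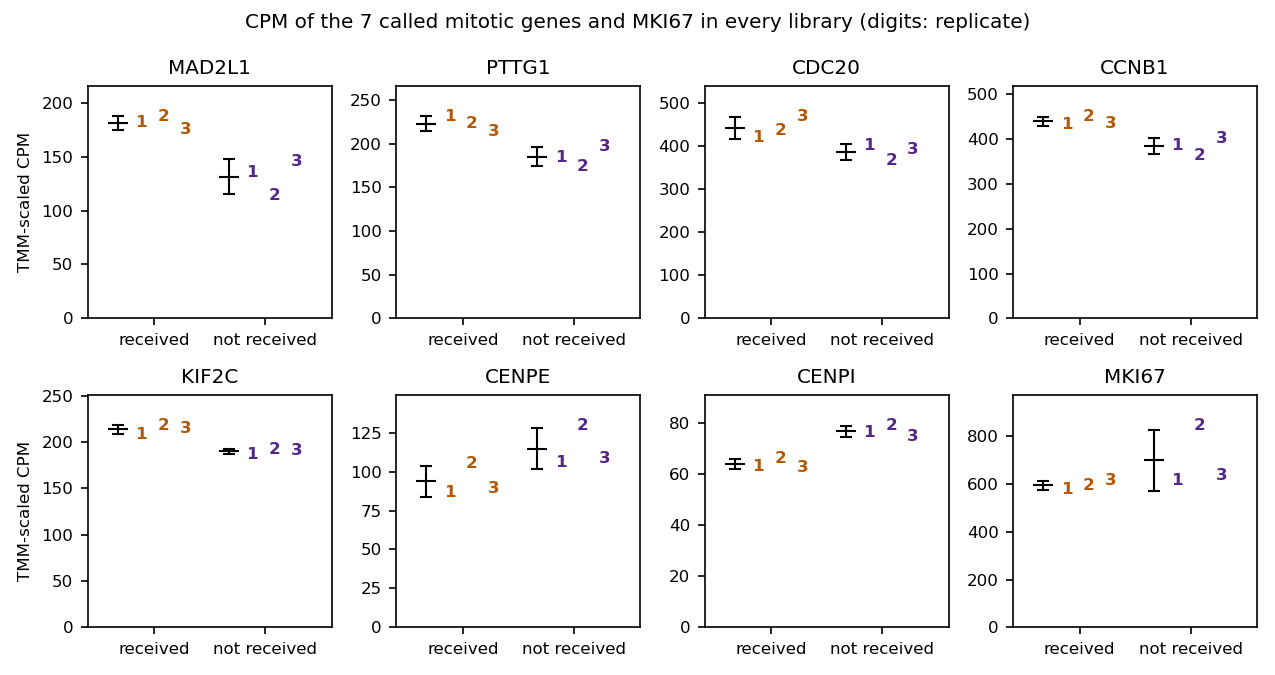
TMM-scaled CPM of the 7 called mitotic genes and of MKI67 in each library (digits give the replicate), with mean and SD beside each group. MAD2L1, PTTG1, CDC20, CCNB1 and KIF2C were higher in every received library than in every not-received one, CENPE and CENPI were lower, and MKI67 had 844 CPM in not-received replicate 2.

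Both CDC20 and securin, which act in the order that leads to anaphase, were called higher in received cells. PTTG1, securin, holds separase inactive until the APC/C destroys it. It had 231, 224 and 214 CPM in received and 185, 174 and 197 CPM in not-received libraries, without overlap. The log2 fold change was 0.27 ± 0.06 (SE, adjusted p = 0.00848, edgeR, n = 3 each), and the call was lost only without received replicate 1 (adjusted p = 0.0598) among the same 13 settings.

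CDC20, the activator of the APC/C and the target of MAD2, had 420.4, 436 and 469 CPM in received libraries and 400.4, 366 and 392 CPM in not-received libraries. The groups did not overlap, and received replicate 3 was highest. The log2 fold change was 0.19 ± 0.06 (SE, adjusted p = 0.0391, edgeR, n = 3 each), and the call was lost without received replicate 1, 2 or 3 or not-received replicate 3 (adjusted p up to 0.179). UBE2C, the enzyme that hands ubiquitin to the APC/C, differed by 0.07 without overlap, and ESPL1, separase itself, by -0.04. Neither was called.

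Among 12 tested centromere and kinetochore genes CENPE and CENPI were called lower (16.7%), and 0 were called higher. Over all tested genes 9.67% were called lower and 9.21% higher. CENPE, a large kinesin that carries chromosomes to the spindle equator, had 86.6, 105 and 89.4 CPM in received and 106, 129.7 and 109 CPM in not-received libraries. Received replicate 2 came within 1 CPM of the lowest not-received library. Its log2 fold change of -0.30 ± 0.09 (SE, adjusted p = 0.0497, edgeR, n = 3 each) was -0.20 without not-received replicate 2 (adjusted p = 0.0572). The call was also lost without received replicate 1 or 3 or not-received replicate 3 (adjusted p up to 0.186), with library size alone and with limma-voom.

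CENPI, a subunit of the inner kinetochore network on centromeric chromatin, had 62.9, 66.2 and 62.8 CPM in received and 76.5, 79.3 and 75.0 CPM in not-received libraries. The groups were well apart, with a log2 fold change of -0.27 ± 0.06 (SE, adjusted p = 0.00986, edgeR, n = 3 each). Without received replicate 1 or 3 the call was lost (adjusted p up to 0.0682). Its partner subunits CENPK and CENPM differed by 0.03 and -0.16. CENPM was called lower without not-received replicate 2 (-0.28, adjusted p = 0.0128, edgeR).

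The histone of centromeres and the outer kinetochore were not called. CENPA, the histone H3 variant that marks centromeres, had 61.3, 60.6 and 57.0 CPM in received and 63.3, 51.6 and 60.9 CPM in not-received libraries (log2 fold change 0.03, adjusted p = 0.818, edgeR), and its chaperone HJURP differed by 0.10. NDC80, which grips the microtubule, had 119, 131 and 122 CPM in received and 109.9, 116 and 119 CPM in not-received libraries (0.11, adjusted p = 0.218, edgeR). Received libraries of NDC80 were above not-received ones by a narrow margin. Of the other NDC80 complex subunits, NUF2 differed by 0.10, SPC24 by -0.08 and SPC25 by 0.34 (adjusted p = 0.112, edgeR), and CENPF, a corona protein, by -0.07.

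Of 12 kinesins 1 was called (8.33%, against 18.9% of all tested genes). KIF2C, the microtubule-depolymerizing motor MCAK that corrects wrong attachments, had 209, 218 and 214 CPM in received and 187, 192 and 191 CPM in not-received libraries. Spread within each group was small, and the log2 fold change was 0.17 ± 0.05 (SE, adjusted p = 0.0407, edgeR, n = 3 each). The call was lost without received replicate 1, 2 or 3 or not-received replicate 1 or 3 (adjusted p up to 0.144), with no low-count filter, and with a block for the replicate number. In the annotation 4.80% of its exonic bases overlap a gene on the other strand.

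Apart from KIF2C and KIF15, the kinesins lay between -0.15 (KIF18B) and 0.10 (KIFC1) on the log2 scale. The median of the 12 was -0.04. KIF11, the motor that pushes spindle poles apart, averaged 170.2 ± 9.60 CPM in received and 183 ± 8.97 CPM in not-received cells (SD, n = 3 each, log2 fold change -0.11, adjusted p = 0.245, edgeR). KIF20A and KIF23, motors of the central spindle, differed by 0.04 and -0.06, and KIF18A, which damps chromosome movements, by -0.07 without overlap.

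Spindle assembly factors, the chromosomal passenger complex and the midzone genes held 9 members, and 0 were called by edgeR, DESeq2 or limma-voom. DLGAP5, which stabilizes kinetochore microtubules, was the only one of the 9 with an unadjusted p under 0.05. It had 234, 261 and 239 CPM in received and 197, 221 and 234 CPM in not-received libraries (log2 fold change 0.17, adjusted p = 0.102, edgeR), with the groups just apart, and was called higher with library size alone (0.21, adjusted p = 0.0493, edgeR). INCENP, the scaffold of the passenger complex, had 174, 181 and 176 CPM in received and 174, 205 and 177 CPM in not-received libraries (-0.07, adjusted p = 0.504, edgeR). ANLN, anillin of the contractile ring, had 467, 487 and 453 CPM in received and 467, 532 and 512 CPM in not-received libraries (-0.10, adjusted p = 0.258, edgeR). The groups of INCENP and ANLN overlapped. The branching factor TPX2 and the midzone bundler PRC1 differed by under 0.02 log2 units, though 57.6% of the exonic bases of PRC1 and 62.2% of those of NUSAP1 are shared with another annotated gene on the same strand.

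All 6 chromosome structure genes had negative log2 fold changes, with a median of -0.13, and 0 of them were called in the edgeR test described above. Not-received replicate 2 had the highest level of all but NCAPG. Without it TOP2A stood at 0.04 and the other 5 between -0.14 (NCAPG) and -0.04 (SMC2). SMC4 and NCAPG had an unadjusted p under 0.05, DESeq2 called SMC4 lower, and limma-voom called 0. With no low-count filter, or without not-received replicate 1, edgeR also called SMC4 lower. SMC4, the condensin subunit with the smallest p, had 379, 403 and 379 CPM in received and 406, 484 and 432 CPM in not-received libraries. Groups did not overlap (log2 fold change -0.19 ± 0.07 SE, adjusted p = 0.0664, edgeR). The condensin subunits NCAPG, NCAPH and SMC2 differed by -0.14, -0.12 and -0.10. In the annotation 25.6% of the exonic bases of SMC4 and 33.1% of those of NCAPG overlap genes on the other strand, and the labels do not say whether the libraries keep the strand.

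MKI67, which encodes the proliferation antigen Ki-67 that coats mitotic chromosomes, had 574, 595 and 613 CPM in received and 613, 844 and 635 CPM in not-received libraries. The groups met at 613 CPM, and not-received replicate 2 was far above the rest. Its log2 fold change of -0.23 ± 0.12 (SE, adjusted p = 0.213, edgeR) was -0.07 without not-received replicate 2. MKI67 was called lower in 1 of the 13 other settings, the one with no low-count filter. TOP2A, the topoisomerase that untangles sister chromatids, had 737, 771 and 712 CPM in received and 678, 801 and 763 CPM in not-received libraries (-0.01, adjusted p = 0.900, edgeR), and the groups overlapped. Both genes were above 570 CPM in all 6 libraries, which were all labelled as cycling.

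**Figure D3:**
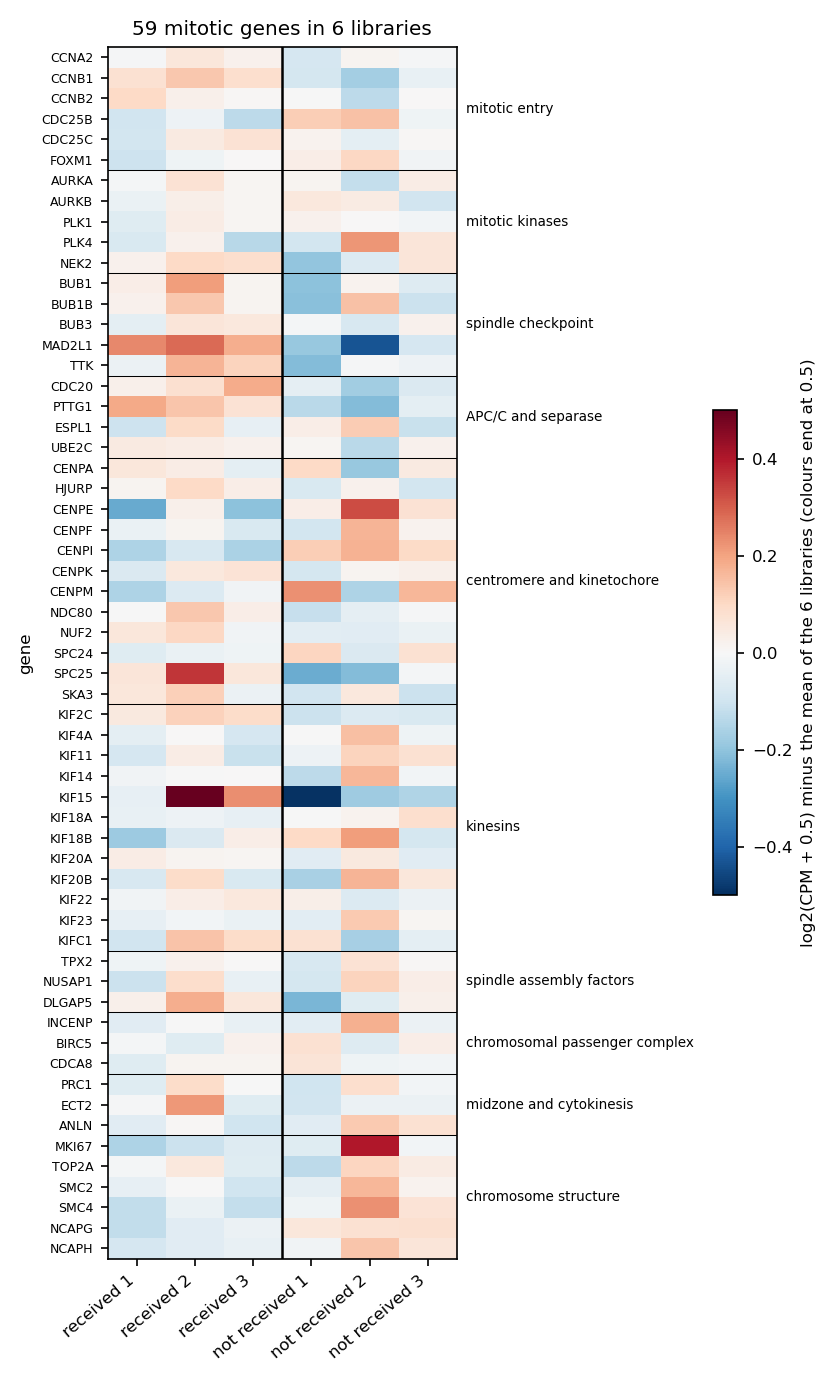
Log2(CPM + 0.5) of 59 mitotic genes minus each gene's mean over the 6 libraries, by role from top to bottom, with received libraries left of not-received ones. MAD2L1 and PTTG1 are red in received and blue in not-received libraries, CENPI and NCAPG the reverse, and not-received replicate 2 has the darkest colours of its group for MKI67, CENPE and MAD2L1.

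Levels of different genes were compared per kilobase of the longest annotated transcript. UBE2C was highest, with 480.0 ± 3.69 CPM per kb in received and 457 ± 27.2 CPM per kb in not-received cells (SD, n = 3 each). CDC20 followed with 249 ± 14.0 CPM per kb in received and 217 ± 9.996 CPM per kb in not-received cells. PTTG1 had 208 ± 8.26 and CCNB1 203 ± 4.60 CPM per kb in received cells, against 173 ± 10.3 and 177 ± 8.35 CPM per kb in not-received cells. The order of PTTG1 and CCNB1 thus changed between groups by less than their spread. Subunits of the NDC80 complex, which bind in equal numbers in the assembled complex, stood in received cells at 57.1 (NDC80), 44.8 (NUF2), 35.2 (SPC24) and 6.05 (SPC25) CPM per kb. In not-received cells they stood at 52.8, 41.8, 37.2 and 4.77 CPM per kb, in the same order. RNA per kb of the longest annotated transcript does not measure the amount of protein, which was not studied here.

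Libraries differed in how often they held the highest level of a mitotic gene. Received replicate 2 had the highest level of 20 of the 59 genes and the lowest of 0, against 2459 and 2479 of all 14100 tested genes. Not-received replicate 2 had the highest of 24 and the lowest of 15, against 3272 and 3104 of all tested genes. The median correlation between pairs of mitotic genes over the 6 libraries was 0.14 across 1711 pairs, which share the same libraries, and 0.30 for deviations from the group means, with 63.8% of pairs positive.

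Transcript length moved with the level in not-received replicate 2. Across the 59 genes the ratio of that replicate to the mean of not-received replicates 1 and 3 had a Spearman correlation of 0.69 with the length of the longest GENCODE 29 transcript, against 0.30 across all tested genes with a length. The 20 shortest genes (914 to 2706 bases) had a median ratio of 0.930 and the 20 longest (4087 to 12678 bases) a median ratio of 1.12. Length also had a correlation of -0.41 with the log2 fold change of the 59 genes, and of -0.19 without not-received replicate 2. Of the 7 called genes, PTTG1, CDC20 and CCNB1, all higher in received cells, are among the 20 shortest. KIF2C (higher) and CENPI (lower) are among the 19 of middle length, and MAD2L1 (higher, 5468 bases) and CENPE (lower) among the 20 longest. The longest annotated transcript of a gene need not be its main one in these cells, which was not examined. The ratio of MAD2L1 was 0.814, below the median of the 20 shortest genes. The part of length in these fold changes was not tested: with a smooth trend of length and GC content over all genes removed from each library, a setting chosen after seeing the data, the correlation in the 59 genes was still -0.38. Under that setting the 7 genes were still called, and KIF11, KIF18A, SMC2, SMC4 and NCAPG were also called lower. Of all tested genes 11.1% were then called higher and 10.4% lower. With not-received replicate 2 left out as well, 7 mitotic genes were called higher and 7 lower, against 11.1% and 12.5% of all tested genes. CCNB1 was no longer called (log2 fold change 0.11, adjusted p = 0.0555, edgeR), nor was SMC2. BUB1, BUB1B and HJURP were then called higher and CENPM lower.

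Called genes were found with and without the CHR letters. Of the 37 tested genes with TTTGAA or TTCGAA in the window, MAD2L1 and CDC20 were called, both higher, and the median log2 fold change was -0.01. Of the 14 genes with neither, CCNB1, PTTG1 and KIF2C were called higher and CENPE and CENPI lower, with a median of 0.03. Over all tested genes 18.9% were called. Each of the calls named here except that of MAD2L1 was lost when some single library was left out. All of CCNB1, MAD2L1, CDC20 and PTTG1 hold CCAAT, while KIF2C, CENPE and CENPI do not. The window used for CENPI starts 621 bases downstream of the first GENCODE 29 start. No test was made of these differences.

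Among 108 other mitotic genes, 10 were called higher and 8 lower (16.7%, against 18.9% of all tested genes), and the median log2 fold change was -0.01. Without received replicate 1, 2 or 3 the calls numbered 4, 4 and 7 higher and 3, 3 and 4 lower. In those fits 4.15% to 4.52% of all tested genes were called higher and 4.74% to 5.13% lower. Without not-received replicate 1 the calls numbered 6 and 6, against 7.29% and 8.59% of all tested genes. CENPH, which binds beside CENPI in the inner kinetochore, was called higher. It had 68.3, 65.2 and 62.6 CPM in received and 47.7, 48.1 and 53.0 CPM in not-received libraries (0.40 ± 0.07 SE, adjusted p = 0.00177, edgeR, n = 3 each), while CENPU of the same network was called lower (-0.39, adjusted p = 8.11e-04, edgeR). Genes of 1 complex thus went both ways. SGO1, shugoshin, which protects centromeric cohesin, was called higher (0.42, adjusted p = 0.00404, edgeR), as was MIS18A, which licenses CENPA loading (0.40, adjusted p = 0.0184). The call of MIS18A was lost without received replicate 1, 2 or 3 or not-received replicate 1.

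PLK3, a stress-responsive Polo-like kinase, was also called higher (0.60 ± 0.10 SE, adjusted p = 0.00124, edgeR). HAUS3, an augmin subunit, was called higher (0.48, adjusted p = 0.0426, edgeR), a call lost without each of the 6 libraries in turn. MAD1L1, the kinetochore partner of MAD2, was chosen after its values were seen. It had 111, 104 and 110.1 CPM in received and 146, 136 and 144 CPM in not-received libraries, without overlap (-0.39 ± 0.06 SE, adjusted p = 6.17e-04, edgeR, n = 3 each), while MAD2L1 was higher. CDK1, the kinase of cyclin B1, had 322, 350.0 and 323 CPM in received and 283, 246 and 313 CPM in not-received libraries, without overlap (0.24 ± 0.08 SE, adjusted p = 0.0513, edgeR). CDK1 was called higher in 5 of the 13 other settings, among them DESeq2, and its log2 fold change was 0.15 without not-received replicate 2 (adjusted p = 0.0608, edgeR).

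The factors of DREAM, B-MYB and NF-Y and the p53 target CDKN1A, 16 genes, had 2 calls higher and 5 lower (43.8%, against 18.9% of all tested genes), with a median of -0.08. Without received replicate 1, 2 or 3 the calls lower numbered 1, 2 and 1, against 4.74% to 5.13% of all tested genes. Without not-received replicate 3 they numbered 3, against 9.73% of all tested genes. MYBL2, which encodes B-MYB, was called lower, with 296, 299 and 309 CPM in received and 369, 365 and 364 CPM in not-received libraries (-0.28 ± 0.05 SE, adjusted p = 0.00253, edgeR, n = 3 each). The DREAM subunit genes RBL1 (-0.27, adjusted p = 0.0116), TFDP2 (-0.31, adjusted p = 0.0244), E2F4 (-0.20, adjusted p = 0.0479) and TFDP1 (-0.20, adjusted p = 0.0244) were also called lower by edgeR, and E2F5 was called higher (0.44, adjusted p = 0.00368). CDKN1A, the CDK inhibitor p21, was called higher (0.18, adjusted p = 0.0387, edgeR). Calls of RBL1, TFDP1, TFDP2, E2F4 and CDKN1A were lost without received replicate 1, among other alternatives.

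S phase genes were set beside the mitotic ones. Of 35, 13 were called lower (37.1%, against 9.67% of all tested genes) and PRIM1 and RFC5 were called higher, with a median log2 fold change of -0.16. Without received replicate 1, 2 or 3 the calls lower numbered 6, 7 and 8, against 4.74% to 5.13% of all tested genes. E2F1, which drives S phase transcription, averaged 101 ± 2.85 CPM in received and 137 ± 9.29 CPM in not-received cells (SD, n = 3 each, -0.44, adjusted p = 4.04e-04, edgeR). UNG (-0.42), MCM4 (-0.38), CDC6 (-0.34), CCNE2 (-0.51) and POLE (-0.35) were also called lower. The calls of CCNE2 and POLE were lost without received replicate 1, 2 or 3. The 35 genes summed to 4415, 4497 and 4643 CPM in received and 5073, 5046 and 5056 CPM in not-received libraries, without overlap, whereas the 60 mitotic genes summed to 11346, 11926 and 11517 CPM in received and 11172, 12016 and 11576 CPM in not-received libraries. The difference between the mitotic and S phase lists was not tested.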

How the data were processed

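Polyadenylated RNA of sorted U87 cells was sequenced as 150 bp paired-end reads, per the labels' protocols, with 3 libraries a group. The authors deposited raw read counts per gene symbol, 1 file a library. DESeq and R 3.6.1 appear in the submitters' processing notes. Aligner, counting program, build and annotation: not given in the sources used here. Counts were filtered (filterByExpr), TMM-scaled and tested in edgeR 4.0.16 (glmQLFit, robust, and glmQLFTest; R 4.3.3). P-values were adjusted by Benjamini-Hochberg over 14100 genes. The SE of a log2 fold change is its size over the root of F. The steps were tested on simulated data. Every mitotic gene could be named. Values per library are given for called genes, for the smallest p in a role with no call, and for 10 genes fixed by name. From each other list at most 6 called genes of largest change were named, with CDK1, MYBL2 and CDKN1A. The members and lists were chosen with earlier results of these data known. Alternatives used RLE factors, library size alone, DESeq2 1.42.0, limma-voom 3.58.1, other filters, a replicate block and each library left out. Chi-square per gene between replicates was 3.23 to 18.5, so no pair agreed within sampling noise. The limit for a count of 0 is 3 counts and covers counting error only. Transcript lengths came from GENCODE 29 and promoters from RefSeq, GRCh38.p14. Protein sequences were not used here.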

Additional observations from a re-analysis of the deposited data

How the results depend on the processing

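With each library left out in turn, the mitotic genes called higher numbered 1 to 7 and those called lower 0 to 3, their median log2 fold change ran from -0.01 to 0.03, and over all genes 604 to 1356 were called higher and 691 to 1579 lower. No mitotic gene that was called changed sign under these settings. The count of mitotic genes called lower, 2 as reported, was 1 with library size alone, against 7.87% of all tested genes. With limma-voom it was 1, against 8.83%, and with no low-count filter 4, against 7.23% of the genes in that fit. With the length and GC trend removed it was 7, both with all libraries and without not-received replicate 2. In those 2 fits 10.4% and 12.5% of all tested genes were called lower. Library size alone moved the mitotic median to 0.039, and 60.3% of all calls were then higher, against 48.8% as reported. With no low-count filter 2084 genes were called lower. DESeq2 called 5 mitotic genes higher and 3 lower, against 3.84% and 5.09% of the genes in its fit, which included genes of low count. Correlations of same-numbered deviations were -0.19, -0.04 and 0.04, and those of different-numbered deviations -0.18 to 0.22. Deviations sum to 0 within each group of 3 libraries, so these values cannot decide whether replicate numbers pair the libraries. Blocking by replicate number, 4 mitotic genes were called higher and 2 lower, and over all genes 1252 and 1384. Depth limits KIF15, with 5 to 22 counts. Why SKA1 had 0 counts at every depth was not tested. Reads shared with pseudogenes or overlapping genes were counted in a way not given in the sources used here.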
